A study of Mus musculus with 26 samples.

Results

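The respiratory chain of the inner mitochondrial membrane is assembled from subunits of separate genetic origin, and this account follows the mRNAs of both. Members were taken by symbol from the deposited count table. They are the mitochondrially encoded subunit genes (mt-Nd, mt-Co, mt-Atp and mt-Cytb) and the nuclear families Nduf, Sdh, Uqcr, Cox4 to Cox8 and Atp5, without pseudogenes. This gave 101 genes of 47730 features, 13 of them mitochondrially encoded and 88 nuclear. The nuclear members divide into 38 for complex I, 4 for complex II, 8 for complex III, 21 for complex IV and 17 for complex V. The names alone decided which genes met this rule, and the rule was chosen with earlier results of these data known.

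Complexes I to IV pass electrons from NADH and succinate to oxygen, with complexes I, III and IV pumping protons on the way, and complex V, the ATP synthase, uses the returning protons to make ATP. The mitochondrial genome is copied as long polycistronic RNAs that are cut into separate mRNAs, while each nuclear subunit has its own promoter and its product is imported. Complex II is the exception, since all of its subunits are nuclear. Tumour cells are known to use both oxidative phosphorylation and glycolysis.

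The material was E-A14, a Her2-expressing mouse mammary tumour line of FVB/N background, transplanted into a mammary fat pad of FVB/N mice aged 6 to 8 weeks. Depleted mice received antibodies against CD4 and CD8a, which remove those T cells, and control mice received rat IgG2a and IgG2b, with 100 µg of each antibody 2 times a week from 2 weeks before implantation. Depleted tumours were collected on day 20 and control tumours on day 47, so treatment and day cannot be told apart. Viable Her2-positive cells lacking CD90, CD105 and CD45 were divided by EpCAM, an epithelial adhesion protein. The groups are EpCAM-negative and EpCAM-positive cells of depleted tumours, EpCAM-negative and EpCAM-positive cells of control tumours, with 6 libraries each, and the unimplanted line in culture, with 2 libraries. Nothing in the labels says that the cultures were grown separately, and all tumours descend from 1 transplanted line. P-values therefore describe the spread between these libraries.

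Total counts were 17559520 to 25601999 per library in depleted tumours, 26895429 to 38740143 in control tumours, and 27253363 and 35059744 in the cultures. Depth therefore did not overlap between depleted and control tumours. Epcam followed the sort, with 40.0 to 284 CPM (counts scaled to a fixed library total after TMM adjustment) in EpCAM-negative against 2038 to 2705 CPM in EpCAM-positive cells of depleted tumours, and 1.06 to 2.39 against 815 to 1416 CPM in control tumours. Summed epithelial markers were 3570 to 5003 CPM in depleted EpCAM-negative cells, beside 3289 to 4509 CPM in EpCAM-positive cells of control tumours. The EpCAM-negative libraries of depleted tumours thus held epithelial transcripts. Transcripts kept by these cells and EpCAM-positive cells carried over in the sort cannot be told apart in bulk. Summed marker values, here and below, are scaled to the library total without TMM adjustment. A gene is called higher or lower below where edgeR's quasi-likelihood test over all 16637 tested features gave an adjusted p under 0.05. Fold changes are log2 values with their standard error, positive where the group named before the reference is higher.

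Of the 13 mitochondrially encoded members, 7 had counts: the complex I subunits mt-Nd1, mt-Nd2, mt-Nd4, mt-Nd5 and mt-Nd6, cytochrome b of complex III (mt-Cytb), and the catalytic subunit of cytochrome c oxidase (mt-Co1). The other 6, mt-Nd3, mt-Nd4l, mt-Co2, mt-Co3, mt-Atp6 and mt-Atp8, were listed at 0 in all 26 libraries, in tables where mt-Cytb summed to 1131414 counts. The mouse nuclear genome holds copies of mitochondrial DNA, and the reads were 50 bases long. Every 50-base window of the annotated transcripts was therefore looked up in all other annotated genes. For mt-Co2 100% of windows occurred elsewhere, for mt-Co3 99.9%, for mt-Atp6 99.5%, for mt-Nd4l 98.8% and for mt-Nd3 98.0%. Of the counted members, mt-Nd4 shared 62.2% and mt-Co1 51.1% of windows (765 of 1496), mt-Nd2 8.19%, mt-Nd5 7.61%, and mt-Nd1, mt-Nd6 and mt-Cytb 0%. The exception was mt-Atp8, which shared 0% and was still at 0. The sources used here do not say how reads with several matches were counted, and the part of that step in these zeros was not tested.

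The windows below show what such sharing looks like at the start of 3 of these mRNAs, read from GENCODE M21 transcripts. The first 50 bases of mt-Co2 are also found in Gm28661, a copy on chromosome 1, and those of mt-Cytb in no other annotated gene. For mt-Co1, the window from base 1 to 50 also lies in Gm13340 on chromosome 2, whereas the window from base 5 to 54 is in no other annotated gene. Copies outside annotated genes were not searched.
mt-Co2 1 to 50: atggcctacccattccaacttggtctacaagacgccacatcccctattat
mt-Cytb 1 to 50: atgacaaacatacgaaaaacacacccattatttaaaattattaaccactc
mt-Co1 1 to 50: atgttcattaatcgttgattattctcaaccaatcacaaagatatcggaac
mt-Co1 5 to 54: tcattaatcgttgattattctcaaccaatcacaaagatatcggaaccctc
The copies themselves held few counts. Gm28438, which matches mt-Nd3, summed to 1306 counts over the 26 libraries, Gm13340 to 235, Gm28661 to 17 and Gm28439, which matches mt-Nd4, to 0. Every statement on mitochondrially encoded members below covers the 7 that were counted, and values of mt-Nd4 and mt-Co1 are uncertain, since more than 50% of their windows are shared.

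**Figure D1:**
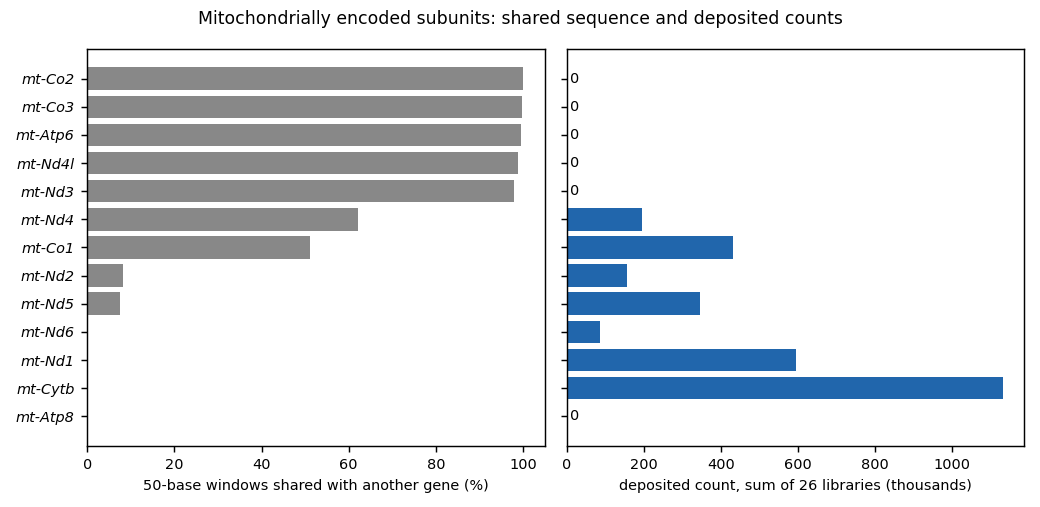
Percent of 50-base windows shared with another annotated gene (left) and summed deposited counts over 26 libraries, divided by 1000 (right), for the 13 mitochondrially encoded subunits. The 5 genes with at least 98.0% shared windows are at 0, as is mt-Atp8 with 0% shared.

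Of the 88 nuclear members, 77 passed the filter on low counts. The other 11 were isoforms and duplicates: Ndufb4c, Cox8b and Cox8c had 0 counts in every library, and Ndufa11b, Ndufs6b, Cox4i2, Cox6a2, Cox6b2, Cox6c2, Cox7b2 and Ndufa4l2 had 3 to 76 counts over all 26. Cox4i2, Cox6a2 and Cox8b, the isoforms of complex IV known from lung, heart and skeletal muscle, were thus at or near 0 in tumours and culture alike. Cox4i1, the widely expressed form of subunit IV, averaged 302 CPM in EpCAM-negative cells of depleted tumours, while Cox4i2, the alternate form known from lung, averaged 0.109 CPM there. Per kilobase of merged exons these levels were 195 and 0.138 CPM. Cox7a1, the muscle form of subunit VIIa, averaged 2.01 CPM per kilobase in the same cells, against 122 CPM per kilobase for Cox7a2. Of the nuclear members with few counts, Atp5g2, Cox7c, Ndufs5 and Atp5l (816 to 2552 counts in all), shared 38.3%, 22.1%, 21.7% and 9.99% of windows with other genes, and their values are uncertain.

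Together the members took a small share of each library, and the tumour groups overlapped. The 13 mitochondrially encoded members held 0.319% to 0.412% of counts in EpCAM-negative and 0.329% to 0.604% in EpCAM-positive cells of depleted tumours. In control tumours they held 0.333% to 0.419% in EpCAM-negative and 0.295% to 0.510% in EpCAM-positive cells, and in the cultures 0.448% and 0.526%. The 88 nuclear members held 0.830% to 1.02% and 0.938% to 1.14% in the corresponding depleted groups, and 0.854% to 1.00% and 0.838% to 1.01% in the control groups. The cultures, at 1.18% and 1.31%, lay above all 24 tumour libraries for the nuclear share. Per kilobase of merged exons, mt-Cytb, mt-Nd1 and mt-Co1 averaged 1213, 707 and 415 CPM in EpCAM-negative cells of depleted tumours. Atp5b, the catalytic beta subunit of ATP synthase, averaged 399 CPM by this measure. The merged exons of Atp5b cover 4237 bases and its coding transcript 1916, so the order of these genes depends on the length used. Since 6 mitochondrial genes are at 0, these shares cannot be read as the balance of mitochondrial and nuclear transcripts.

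Within depleted tumours, 6 of the 7 counted mitochondrial mRNAs were lower in EpCAM-negative than in EpCAM-positive cells, where 14.3% of all tested features were lower. The largest change was that of mt-Nd4, a proton-pumping subunit of complex I. It stood at 158, 216 and 238 CPM (lowest, median and highest library) in EpCAM-negative cells, against 205, 341 and 461 CPM in EpCAM-positive cells (−0.68 ± 0.15, edgeR adjusted p = 0.0011). The groups overlapped, and the EpCAM-positive libraries spread more widely. Cytochrome b, the mitochondrially encoded subunit of complex III, had 1218, 1442 and 1500 CPM in EpCAM-negative against 1288, 1982 and 2419 CPM in EpCAM-positive cells (−0.46 ± 0.13, edgeR adjusted p = 0.0083). mt-Nd5, another pumping subunit of complex I, had 278, 380 and 457 CPM against 339, 565 and 719 CPM (−0.54 ± 0.15, edgeR adjusted p = 0.0068). In each of these genes EpCAM-positive libraries 1, 3 and 4 lay above every EpCAM-negative library, and EpCAM-positive library 6 lay within their range.

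The remaining complex I mRNAs followed, with −0.58 ± 0.14 for mt-Nd2, −0.51 ± 0.15 for mt-Nd6, which lies on the other DNA strand than the rest, and −0.37 ± 0.13 for mt-Nd1. The exception was mt-Co1, at 325, 652 and 857 CPM in EpCAM-negative against 503, 544 and 614 CPM in EpCAM-positive cells, a difference that did not pass. The median over the 7 was −0.51, beside 0.01 over all tested features. The mitochondrial rRNAs, cut from the same kind of precursor, were also lower in EpCAM-negative cells (mt-Rnr2 −0.79 ± 0.17 and mt-Rnr1 −0.87 ± 0.23). In bulk libraries fewer cells of a type and less RNA per cell cannot be told apart. Summed epithelial markers moved with this contrast, at 3570 to 5003 CPM in EpCAM-negative against 9086 to 9750 CPM in EpCAM-positive cells, and so did skeletal muscle markers, at 26.6 to 34.1 against 42.3 to 83.8 CPM without overlap. The cultures had 26.2 and 26.5 CPM of skeletal muscle markers. Mesenchymal markers moved the other way, at 16073 to 23038 against 7210 to 9598 CPM, and macrophage (143 to 344 against 170 to 256 CPM), endothelial (10.6 to 42.2 against 32.4 to 61.1 CPM) and fibroblast markers (151 to 207 against 64.2 to 158 CPM) overlapped. Their part in the result was not tested. With any 1 library left out, 5 or 6 of the 7 were lower. mt-Nd1 missed the threshold without EpCAM-negative library 1 or 6 or EpCAM-positive library 1, 3 or 4 (−0.36 to −0.29).

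**Figure D2:**
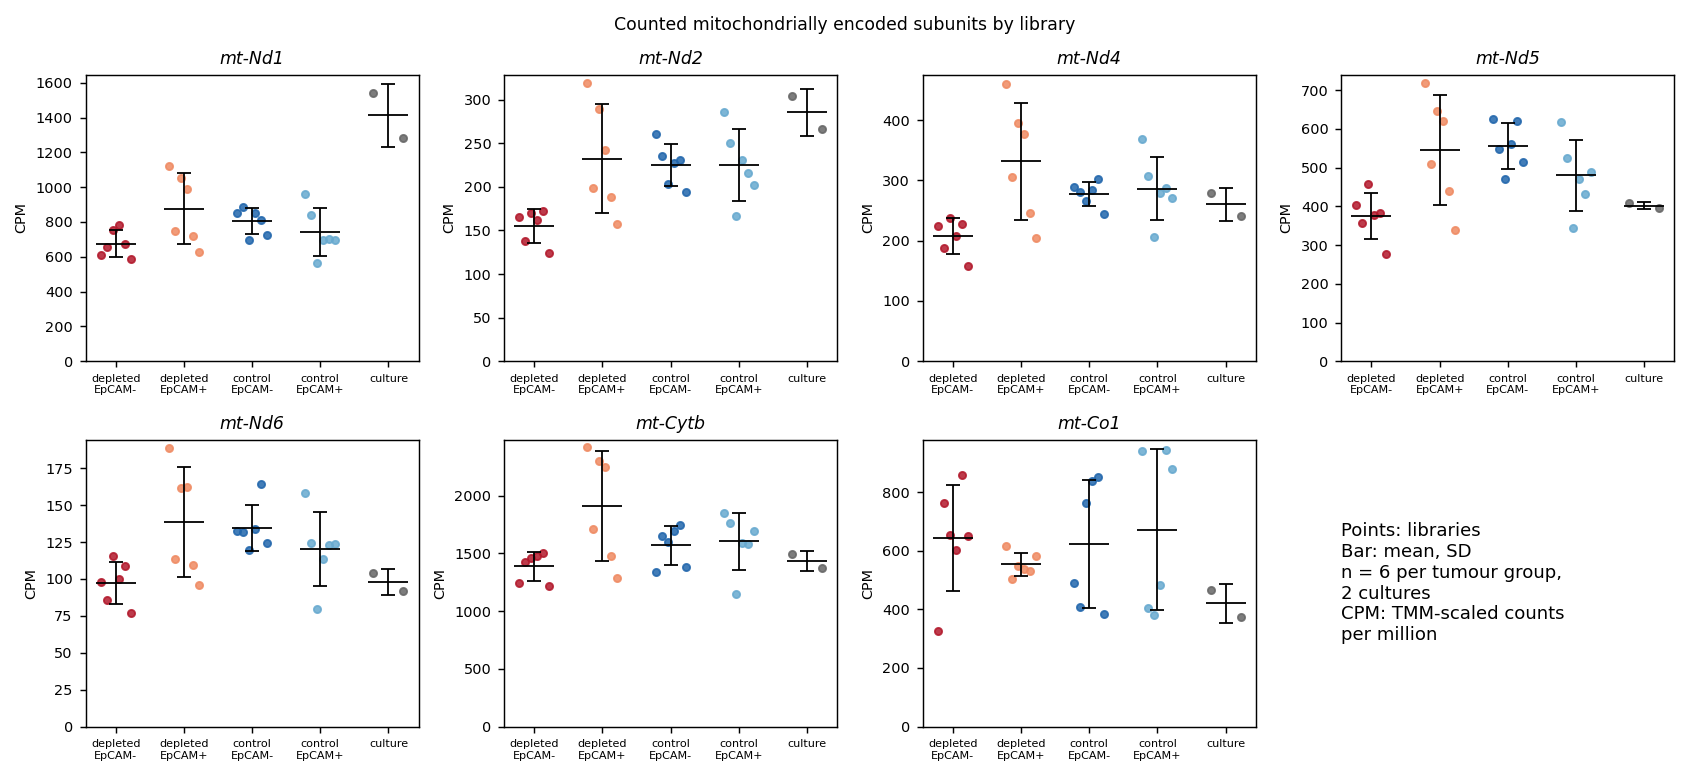
CPM of the 7 counted mitochondrially encoded subunits in each library, by group, with mean and SD (n = 6 per tumour group, n = 2 cultures). EpCAM-negative cells of depleted tumours have the lowest group means of the tumour groups for mt-Nd1, mt-Nd2, mt-Nd4, mt-Nd5, mt-Nd6 and mt-Cytb, whereas mt-Co1 spreads from 325 to 944 CPM over the tumour libraries.

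Among the nuclear subunits the same contrast gave 8 of 77 lower and 2 higher, where 14.3% of all features were lower and 14.2% higher, and a median of −0.08. The lower count depended on the processing: it was 16 with DESeq2, 14 with RLE factors, 13 with library sizes free of mitochondrial features and 5 with library totals alone. Ndufa4, once counted with complex I and now placed in complex IV, changed most. It stood at 149, 190 and 212 CPM in EpCAM-negative against 289, 307 and 392 CPM in EpCAM-positive cells, with no overlap (−0.80 ± 0.10, edgeR adjusted p = 5.2e-07). Cox4i1 had 246, 311 and 354 CPM in EpCAM-negative against 369, 399 and 503 CPM in EpCAM-positive cells (−0.44 ± 0.10, edgeR adjusted p = 0.00081), again without overlap. Ndufa9, an accessory subunit of the matrix arm of complex I, was the third member without overlap, at 117, 125 and 133 against 147, 154 and 172 CPM (−0.33 ± 0.07). A gap between the groups in this direction occurred in 8.45% of all tested features and in 3 of 77 nuclear members (3.9%), and 0 of 77 lay wholly above, beside 7.1% of all features.

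The other lower members were the complex I accessory subunits Ndufa3 (−0.38 ± 0.10), Ndufa13, Ndufb7 and Ndufs4 and the stalk subunit Atp5h of ATP synthase (−0.33 ± 0.10). The higher members were Ndufs7, an iron-sulfur core subunit of complex I (0.27 ± 0.08), and Sdhb, the iron-sulfur subunit of complex II (0.25 ± 0.08). The count of lower nuclear members depended on single libraries. It was 17 without EpCAM-negative library 1, 14 without EpCAM-negative library 2 or 5, and 5 without EpCAM-negative library 3 or 6 or EpCAM-positive library 1. The higher count was 1 without EpCAM-negative library 1, 2 or 5 and 4 without EpCAM-negative library 6. Sdhb did not pass without EpCAM-negative library 1 or 5 (0.21 in both).

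Within control tumours none of the 7 counted mitochondrial mRNAs differed between the fractions (0 called by edgeR's quasi-likelihood test, 0 at an unadjusted p under 0.05, 0 by DESeq2), where 13.3% of all tested features were higher and 14.5% lower. mt-Nd5 stood at 472, 554 and 625 CPM in EpCAM-negative against 345, 480 and 618 CPM in EpCAM-positive cells, and mt-Cytb at 1341, 1626 and 1748 CPM against 1150, 1642 and 1846 CPM. The groups overlapped for every counted mitochondrial member. mt-Co1 varied most between libraries, with 382, 405 and 482 CPM in EpCAM-positive libraries 3, 2 and 4 and 877 to 944 CPM in libraries 1, 5 and 6. Of the nuclear members 8 of 77 were higher in EpCAM-negative cells and 0 lower (1 lower at an unadjusted p under 0.05 and 1 by DESeq2). Sdhb stood at 135, 139 and 163 CPM in EpCAM-negative against 95.4, 107 and 115 CPM in EpCAM-positive cells (0.43 ± 0.08, edgeR adjusted p = 0.00010). Ndufa8, an accessory subunit of complex I that faces the intermembrane space, had 111, 120 and 123 against 79.9, 90.8 and 99.0 CPM (0.39 ± 0.08, edgeR adjusted p = 0.00028). Both were free of overlap, and they were the 2 of 77 members so placed, beside 6.31% of all features; 0 of 77 lay wholly below, beside 7.1%. Sdhb was higher in EpCAM-negative cells in both treatments; its partners Sdha and Sdhd did not pass in either.

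The other higher members included Ndufv3 of the NADH-oxidising module (0.33 ± 0.09), the core subunits Ndufs8 and Ndufs3 of complex I (0.26 and 0.23), Sdhc, a membrane anchor of complex II (0.23 ± 0.08), and Atp5c1, the rotating gamma subunit of ATP synthase (0.22 ± 0.06). The count fell to 5 without EpCAM-negative library 1 or EpCAM-positive library 6. With library totals in place of TMM factors it was 2 higher and 2 lower, and the median of all tested features moved by −0.14. Sdhc missed the threshold when EpCAM-negative library 1, 2 or 4 or EpCAM-positive library 1, 2, 5 or 6 was left out (0.18 to 0.22). Summed epithelial markers were 771 to 1308 CPM in EpCAM-negative against 3289 to 4509 CPM in EpCAM-positive cells. Summed macrophage markers were 50.9 to 66.8 against 128 to 283 CPM, beside 77.3 and 81.3 CPM in the cultures. The part of both lists in these values was not tested.

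The EpCAM contrast was then compared between the treatments by the interaction term, depleted minus control. Of the mitochondrial members 4 of 7 had a lower contrast in depleted tumours, where 8.69% of all tested features did. They were mt-Nd5 (−0.75 ± 0.21, edgeR adjusted p = 0.012), mt-Nd6 (−0.67 ± 0.21), mt-Nd4 (−0.63 ± 0.21) and mt-Nd2 (−0.58 ± 0.20). Of the nuclear members 8 of 77 had a lower contrast and 1 a higher one, against 9.33% of all features for the higher direction. Ndufa4 led with −0.72 ± 0.14 (edgeR adjusted p = 0.00056): its contrast was −0.80 in depleted and −0.08 in control tumours. Atp5c1 (−0.37 ± 0.09) and Ndufa8 (−0.44 ± 0.11) were higher in EpCAM-negative cells of control tumours and did not pass in depleted tumours. Ndufa6, an accessory subunit of complex I, had the opposite sign (0.44 ± 0.13). The mitochondrial count was 1 or 2 on leaving out EpCAM-negative library 2, 4 or 6 or EpCAM-positive library 1, 3 or 4 of depleted tumours, or EpCAM-negative library 1, 2, 4 or 5 or EpCAM-positive library 3, 4, 5 or 6 of control tumours. mt-Nd5 passed in each of these. With library totals alone 1 mitochondrial member was lower, and the nuclear members split into 1 lower and 1 higher, with the median of all features moved by 0.17. mt-Nd6, mt-Nd4 and mt-Nd2 ranged over −0.63 to −0.47 where they did not pass.

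**Figure D3:**
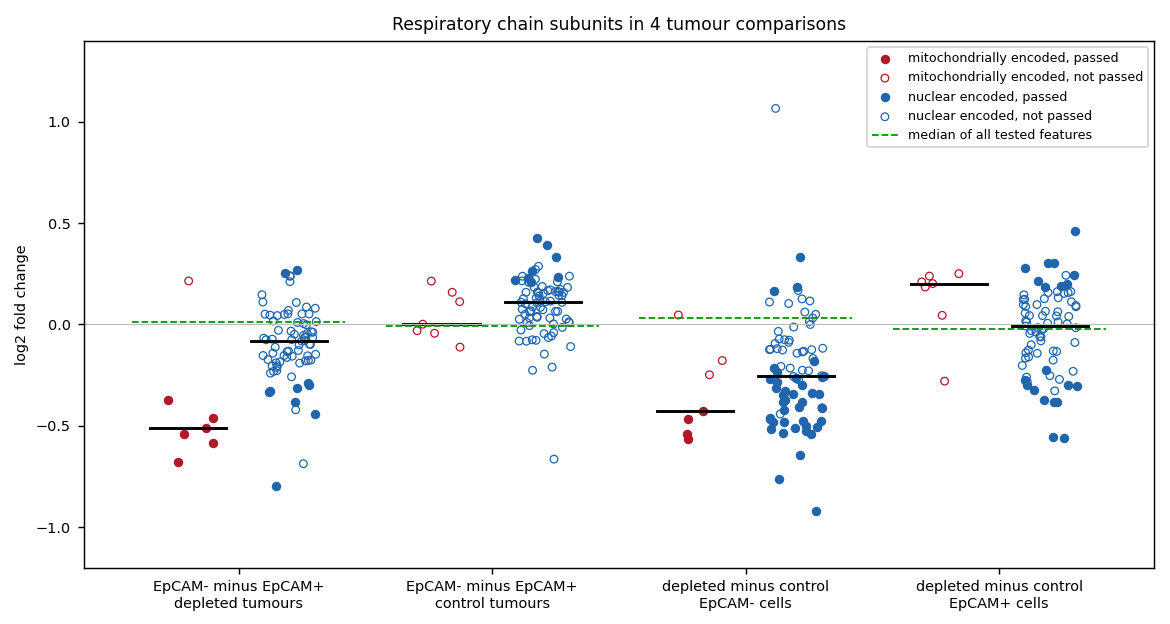
Log2 fold change of each of the 84 tested members in the 4 tumour comparisons; filled points passed an adjusted p under 0.05, black bars are medians of the members and green dashed lines the median of all 16637 tested features. Mitochondrially encoded members lie lower in EpCAM-negative than in EpCAM-positive cells of depleted tumours (median −0.51), and both sets lie lower in depleted than in control EpCAM-negative cells (medians −0.42 and −0.25).

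Between treatments, EpCAM-negative cells showed the broadest change of the tumour comparisons. Of the nuclear members 37 of 77 were lower and 3 higher in depleted than in control tumours, where 23.2% of all tested features were lower and 21.9% higher. Of the mitochondrial members, 4 of 7 were lower: mt-Nd5 (−0.57 ± 0.15), mt-Nd2 (−0.54 ± 0.14), mt-Nd6 (−0.47 ± 0.15) and mt-Nd4 (−0.42 ± 0.15). Medians were −0.42 for the mitochondrial and −0.25 for the nuclear members, beside 0.03 for all features. mt-Nd2 had 124, 164 and 172 CPM in depleted against 194, 229 and 261 CPM in control tumours, and mt-Nd5 278, 380 and 457 against 472, 554 and 625 CPM. Depleted and control libraries did not overlap for any of these 4, nor for 22 of the nuclear members, where 14.5% of all features had depleted libraries wholly below control libraries. No member had them wholly above (0 of 84), beside 10.4% of all features. The treatments also differ in day and in depth, which cannot be told apart from the antibodies. Without depleted library 6 mt-Nd4 did not pass (−0.36).

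By complex, 18 of 35 nuclear subunits of complex I were lower, 4 of 8 of complex III, 5 of 13 of complex IV and 9 of 17 of complex V. In complex II it was 1 of 4, Sdhc (−0.22 ± 0.08), which did not pass without depleted library 3, 5 or 6 or control library 1, 2 or 4 (−0.21 to −0.18). Ndufb10, an accessory subunit at the far end of the membrane arm of complex I, had 36.8, 42.4 and 47.2 CPM in depleted against 64.9, 73.6 and 76.5 CPM in control tumours (−0.76 ± 0.08, edgeR adjusted p = 4.3e-08). Ndufb2, from the same arm, had 18.9, 22.7 and 26 against 31, 33.9 and 42.6 CPM (−0.64 ± 0.13). In complex III the small subunits Uqcr11 (−0.54 ± 0.11) and Uqcrq (−0.46 ± 0.09) changed most. In complex IV these were Cox5a, which had 60.1, 71.6 and 80.5 against 94.0, 102 and 115 CPM (−0.54 ± 0.08), and Cox6c (−0.51 ± 0.09).

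In complex V the largest change was that of Atp5l, subunit g, at 0.351, 0.732 and 1.08 CPM in depleted against 1.11, 1.37 and 1.58 CPM in control tumours (−0.92 ± 0.27), levels that rest on few counts. Atp5e, the epsilon subunit, followed with −0.42 ± 0.12. The 3 higher members were Cox7a2l, a factor that joins complexes III and IV (0.33 ± 0.11), and the large catalytic or core subunits Atp5a1 (0.18 ± 0.06) and Uqcrc1 (0.16 ± 0.07). Cox4i1, Cox6a1, Cox6b1, Cox7a1 and Cox7a2 did not pass.

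The members that fell were mostly ones with a short median coding transcript. That median covers every coding transcript of a gene: it puts Uqcrc1 at 533 bases, although its longest annotated transcript has 2473. The classes are therefore a rough guide to mRNA length. Among nuclear members with coding transcripts under 1000 bases (median per gene), 32 of 58 were lower and 1 was higher, and among the longer ones 5 of 19 were lower and 2 higher. Over all tested features with a coding transcript the share called lower was 27.7% for the short and 26.1% for the long class. The part of length in the members' calls was not tested. The summed shares, taken on library totals without TMM factors, did not follow the gene-wise values, which use those factors. On library totals alone the gene-wise nuclear median was −0.07, in place of −0.25 with TMM factors. The nuclear share of counts was 0.830% to 1.02% in depleted and 0.854% to 1.00% in control EpCAM-negative cells, and Atp5b, the nuclear member with the most counts, did not pass (0.11 ± 0.06).

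The size of this change depended on the scaling. TMM factors, which set aside features of extreme change, were 1.02 to 1.06 in EpCAM-negative cells of depleted and 0.877 to 0.947 in those of control tumours. With library totals alone the median of all features rose by 0.19, the nuclear members split into 17 lower and 12 higher, and 2 of 7 mitochondrial members were lower. The nuclear median was then −0.07, beside 0.22 for all features. Fibroblast markers, which include collagens, summed to 151 to 207 CPM in depleted against 1124 to 4297 CPM in control tumours. Macrophage markers summed to 143 to 344 against 50.9 to 66.8 CPM, and skeletal muscle markers, from a tissue rich in mitochondria, to 26.6 to 34.1 against 6.47 to 14.3 CPM. The cultured line, which was not implanted, had 77.3 and 81.3 CPM of macrophage and 26.2 and 26.5 CPM of skeletal muscle markers. Its fibroblast markers summed to 19.2 and 20.7 CPM and its endothelial markers to 1.61 and 1.74 CPM. Epithelial markers summed to 3570 to 5003 against 771 to 1308 CPM, and endothelial markers to 10.6 to 42.2 against 3.02 to 7.05 CPM. The part of these marker lists in the result was not tested.

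In EpCAM-positive cells the same treatments gave a mixed picture. Of the nuclear members 11 of 77 were lower and 9 higher in depleted tumours, where 22.4% of all tested features were lower and 17.6% higher, and their median was −0.01. None of the 7 mitochondrial members passed (0 by edgeR's quasi-likelihood test, 0 at an unadjusted p under 0.05, 0 by DESeq2), although their median was 0.20; without depleted library 6 the count was 2 higher, and without control library 1 it was 1. mt-Rnr2, the large mitochondrial rRNA, was higher (0.86 ± 0.17), whereas mt-Rnr1 did not pass (0.35 ± 0.23). The lower members were led by complex I accessory subunits. Ndufa6 had 58.8, 65.3 and 79.2 CPM in depleted against 82.2, 99.6 and 106 CPM in control tumours (−0.56 ± 0.09, edgeR adjusted p = 1.4e-05). Ndufb10 had 37.0, 43.0 and 55.7 against 60.5, 63.3 and 69.5 CPM (−0.56 ± 0.08), and Cox5a 61.9, 66.5 and 80.1 against 82.9, 87.9 and 99.0 CPM (−0.38 ± 0.08). These 3 were free of overlap, beside 12.5% of all features in that direction.

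Of the 9 higher members, 5 were core or catalytic subunits: Sdhb, Uqcrc1, Uqcrc2, Atp5b and Atp5a1. Ndufa4 had 289, 307 and 392 CPM in depleted against 186, 240 and 267 CPM in control tumours (0.46 ± 0.10, edgeR adjusted p = 0.00050). Atp5b had 1730, 1871 and 2014 against 1429, 1523 and 1643 CPM (0.30 ± 0.06), and Uqcrc1, a core protein of complex III, 320, 357 and 381 against 259, 288 and 310 CPM (0.30 ± 0.07). With Sdhb, at 119, 123 and 155 against 95.4, 107 and 115 CPM (0.28 ± 0.08), these 4 did not overlap, where 9.21% of all features had depleted libraries wholly above control libraries. Cox4i1 (0.24 ± 0.10), Ndufa9, Ndufa10, Uqcrc2 and Atp5a1 completed the list. Cox4i1 did not pass without depleted library 1, 2, 3 or 4 or control library 1, 5 or 6 (0.18 to 0.25). By the same median length, 11 of 58 nuclear members under 1000 bases were lower and 3 higher, and of the longer ones 0 of 19 were lower and 6 higher. Over all tested features with a coding transcript 24.8% of the short class were lower and 19.7% higher, and 25.5% of the long class were lower and 19.9% higher. The lower share of short members, 19%, was thus below that of all short features. Fibroblast markers summed to 64.2 to 158 CPM in depleted against 1276 to 3231 CPM in control tumours. Epithelial markers summed to 9086 to 9750 against 3289 to 4509 CPM, skeletal muscle markers to 42.3 to 83.8 against 10.3 to 20.2 CPM, and endothelial markers to 32.4 to 61.1 against 5.84 to 23.4 CPM. None of these 4 lists overlapped, and their part in the result was not tested. In the cultures skeletal muscle markers summed to 26.2 and 26.5 CPM.

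**Figure D4:**
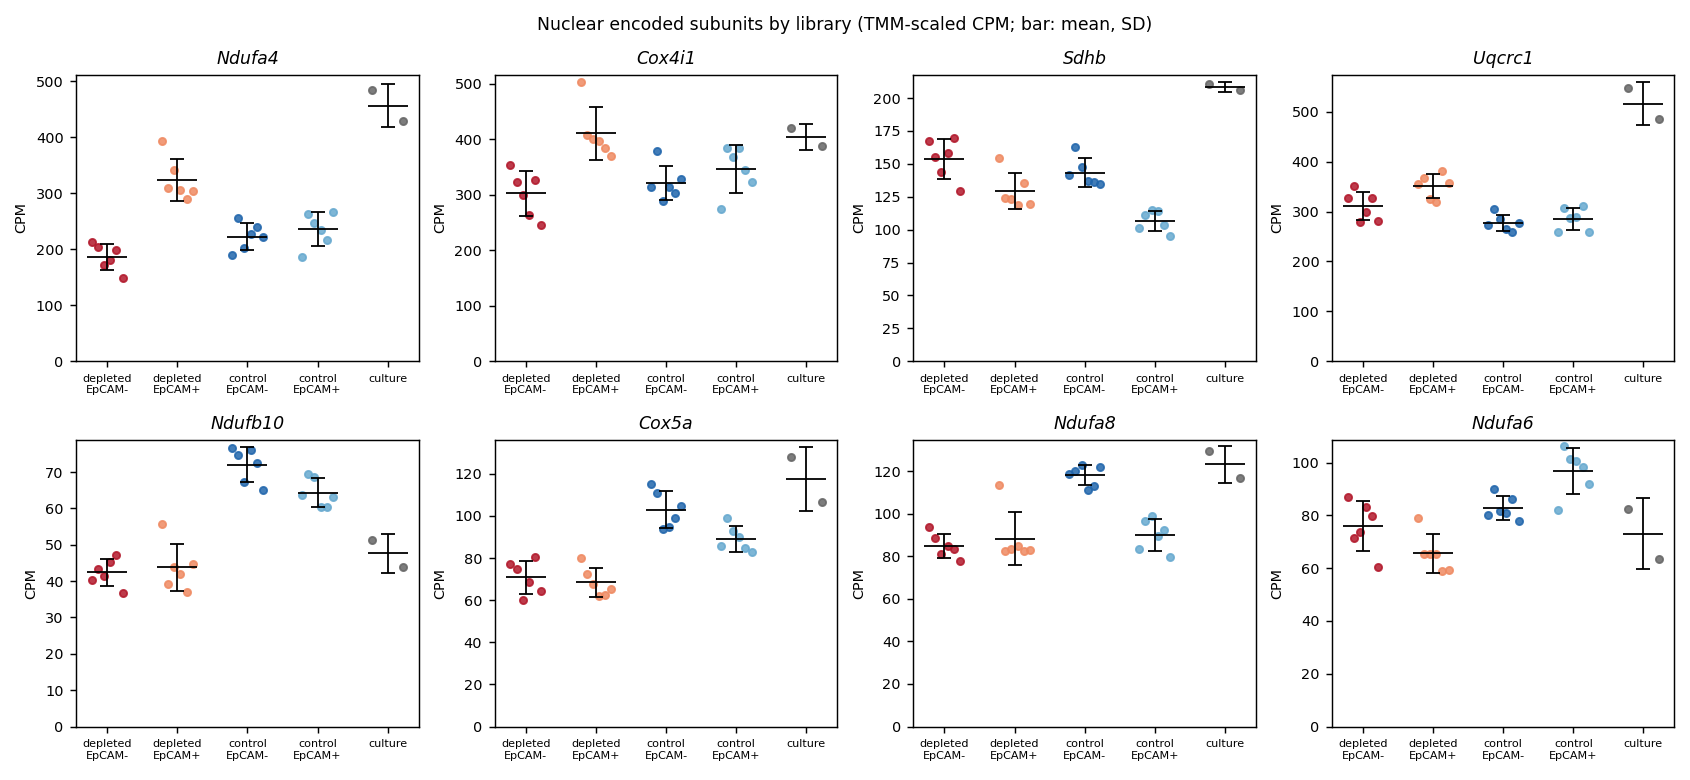
CPM of 8 nuclear subunits in each library, by group, with mean and SD (n = 6 per tumour group, n = 2 cultures). Ndufa4 has its lowest mean in EpCAM-negative cells of depleted tumours (186 CPM) and its highest values in the cultures (429 and 483 CPM), and Ndufb10 and Cox5a lie lower in depleted than in control tumours.

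Against the cultured line, more nuclear members were lower than higher in all 4 tumour groups. Of 77, 37 were lower and 3 higher in EpCAM-negative cells of depleted tumours (all features 20.6% and 21.8%), and 25 were lower and 2 higher in EpCAM-positive cells of depleted tumours (18.6% and 20.9%). In control tumours 17 were lower and 7 higher in EpCAM-negative cells (24.2% and 26.5%), and 25 were lower and 4 higher in EpCAM-positive cells (22.4% and 27.8%). In EpCAM-negative cells of control tumours the lower share, 22.1%, was thus near that of all features. The 4 comparisons share both culture libraries. Without culture library 1 the lower counts were 20, 11, 10 and 13 in that order, and without culture library 2 the higher counts were 1, 0, 2 and 1. With library totals alone they were 53, 37, 50 and 44 lower and 2, 1, 1 and 1 higher, with shifts of the median of all features of −0.12, −0.16, −0.31 and −0.17.

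Uqcrq, a small subunit of complex III, was among the members furthest from the cultures, which had 167 and 188 CPM. Its level was 61.1, 69.3 and 83.3 CPM in EpCAM-negative and 62.8, 65.9 and 87.0 CPM in EpCAM-positive cells of depleted tumours (−1.31 ± 0.12 and −1.33 ± 0.12 against culture). It was 95.5, 97.5 and 106 CPM in EpCAM-negative and 77.6, 82.5 and 104 CPM in EpCAM-positive cells of control tumours (−0.85 ± 0.12 and −1.03 ± 0.12). Every tumour library lay below both cultures. Sdhb, at 206 and 211 CPM in the cultures, was lower in the same 4 groups (−0.44, −0.69, −0.54 and −0.97), as was Ndufa4 (−1.29, −0.50, −1.04 and −0.95), in the order EpCAM-negative then EpCAM-positive, depleted before control. Without culture library 1 Ndufa4 did not pass in EpCAM-positive cells of depleted tumours (−0.41). Atp5g1, which encodes the c-ring subunit of ATP synthase, was at 26.9 and 27.5 CPM in the cultures and changed by −1.15, −1.08, −0.80 and −0.92.

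Ndufs6, an accessory subunit of the NADH-oxidising module, and Uqcrc1 were likewise lower in all 4 groups. The opposite was seen for Ndufv3, an accessory subunit of that module, which had 45.2 and 50.1 CPM in the cultures and was higher in every tumour group (0.52 ± 0.14, 0.45 ± 0.14, 0.98 ± 0.14 and 0.65 ± 0.14). Cox7a2l was higher in 3 of the 4 and did not pass in EpCAM-negative cells of control tumours. Its calls in EpCAM-positive cells did not hold without culture library 2 (0.53 in depleted and 0.40 in control tumours), and in control tumours also not without culture library 1 or tumour library 3 or 5 (0.34 to 0.43). Among mitochondrial members mt-Nd1 alone was lower in every tumour group. It had 1283 and 1542 CPM in the cultures, against 586, 665 and 782 CPM in EpCAM-negative and 630, 867 and 1122 CPM in EpCAM-positive cells of depleted tumours. In control tumours mt-Nd1 had 697, 831 and 884 CPM in EpCAM-negative and 564, 700 and 958 CPM in EpCAM-positive cells. The changes were −1.06 ± 0.17, −0.69 ± 0.18, −0.81 ± 0.18 and −0.93 ± 0.17; without culture library 1 the change in EpCAM-positive cells of depleted tumours did not pass (−0.55). mt-Nd2 was lower in EpCAM-negative cells of depleted tumours (−0.88 ± 0.19).

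**Figure D5:**
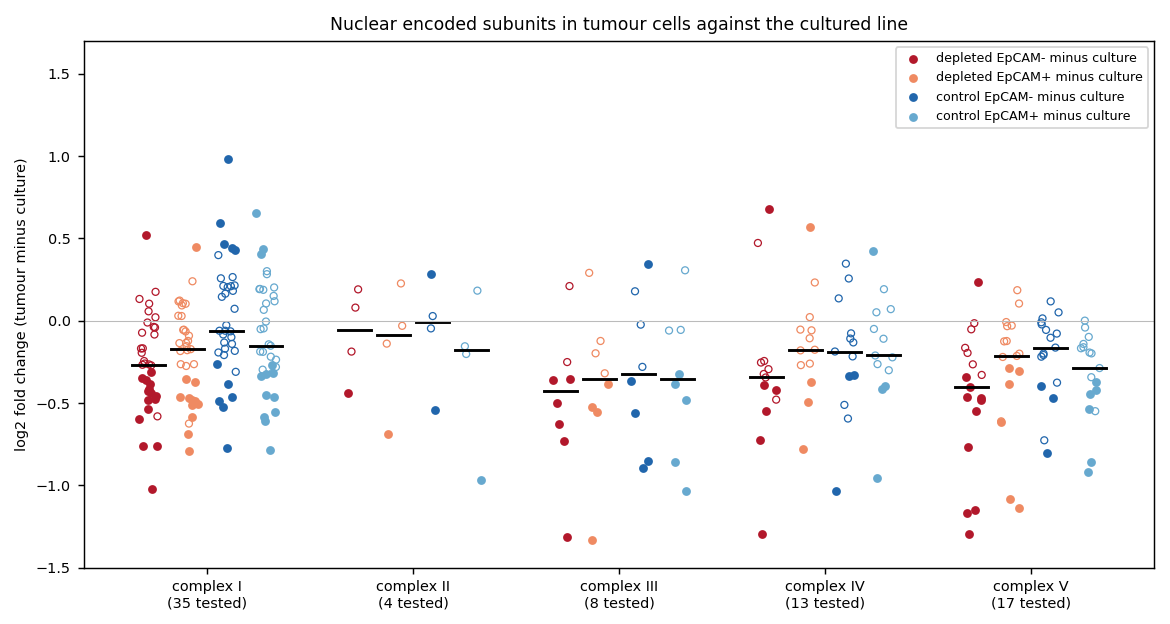
Log2 fold change of the 77 tested nuclear members in each tumour group against the 2 cultures, by complex; filled points passed an adjusted p under 0.05 and black bars are medians. Complex III has medians between −0.43 and −0.32, and the points below −1 in complexes III, IV and V include Uqcrq, Ndufa4, Atp5g1, Atp5g2 and Atp5l.

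Promoters of the nuclear members were read to see what members that moved together share. RefSeq promoters on GRCm38.p6, 250 bases before to 50 bases after each start, were matched for 63 of the 77 tested members. Members were matched by gene identifier, or else by symbol, and the background of tested genes by symbol alone. Exact letters were searched on both strands for NRF1 (GCGCA, any base, then GCGC), for ETS factors such as GABP (CCGGAAGT), and for YY1 (AAGATGGCG), 3 factors known to act on respiratory genes. NRF1 letters were in 16 of 63 promoters (25.4%), beside 9.63% of 11456 promoters of tested genes and 4.78% of all 27025. YY1 letters were in 6 (9.52%, beside 2.88% and 1.49%), and ETS letters in 5 (7.94%, beside 7.80% and 4.0%). Set beside the change between treatments in EpCAM-negative cells, NRF1 letters were in 6 of 32 promoters of lower members, 1 of 2 of higher members and 9 of 29 of members that did not pass. A match is a description and not a binding site. The difference between these classes was not tested.

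Shown are promoters of Ndufa8 and Uqcrc1, which hold NRF1 letters and of which the first was lower and the second higher in EpCAM-negative cells of depleted than of control tumours, of Ndufs6, which holds NRF1 and YY1 letters and was lower than culture in every tumour group, and of Ndufa4, the nuclear member with the largest EpCAM contrast in depleted tumours, which holds none. They lie at chr2:36049289-36049588 (minus strand), chr9:108936398-108936697 (plus), chr13:73328433-73328732 (minus) and chr6:11907401-11907700 (minus). Each is written 5′ to 3′ in the direction of its gene, and capitals mark the matched letters.
Ndufa8: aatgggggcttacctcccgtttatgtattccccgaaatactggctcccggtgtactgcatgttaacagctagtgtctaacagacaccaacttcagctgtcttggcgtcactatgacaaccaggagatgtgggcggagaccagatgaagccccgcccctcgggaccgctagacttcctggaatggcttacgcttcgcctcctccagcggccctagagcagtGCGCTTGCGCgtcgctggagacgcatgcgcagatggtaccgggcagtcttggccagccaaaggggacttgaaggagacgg
Uqcrc1: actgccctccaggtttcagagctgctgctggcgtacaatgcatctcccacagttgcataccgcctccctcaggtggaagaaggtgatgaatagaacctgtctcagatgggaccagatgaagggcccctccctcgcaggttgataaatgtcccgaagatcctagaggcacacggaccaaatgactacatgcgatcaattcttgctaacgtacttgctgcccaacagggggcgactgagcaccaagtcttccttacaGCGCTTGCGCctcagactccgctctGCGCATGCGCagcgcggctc
Ndufs6: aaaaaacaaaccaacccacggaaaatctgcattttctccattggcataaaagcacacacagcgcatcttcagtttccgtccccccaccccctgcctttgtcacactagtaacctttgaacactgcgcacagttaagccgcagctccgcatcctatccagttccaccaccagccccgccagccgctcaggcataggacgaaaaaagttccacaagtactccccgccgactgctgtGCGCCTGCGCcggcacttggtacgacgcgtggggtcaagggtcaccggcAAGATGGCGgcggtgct
Ndufa4: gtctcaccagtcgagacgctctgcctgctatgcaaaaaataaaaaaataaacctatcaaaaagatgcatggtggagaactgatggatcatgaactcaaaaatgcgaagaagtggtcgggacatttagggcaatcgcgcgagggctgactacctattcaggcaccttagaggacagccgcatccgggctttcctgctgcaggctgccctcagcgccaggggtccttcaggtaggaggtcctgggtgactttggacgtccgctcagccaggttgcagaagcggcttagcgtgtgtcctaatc

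The genes around the respiratory chain were then counted list by list. Mitochondrial ribosomal proteins, which build the ribosome that translates the mitochondrial mRNAs, were mostly lower than culture. Of 77, the EpCAM-negative cells had 59 lower and the EpCAM-positive cells 62 lower in depleted tumours. The corresponding control groups had 45 and 61 lower. Of all tested features 20.6%, 18.6%, 24.2% and 22.4% were lower, in that order. The list medians were −0.53, −0.59, −0.41 and −0.59, beside 0.09, 0.11, 0.08 and 0.17 for all features. These comparisons share the culture libraries, and leaving out a culture library was not tested for this list. Between EpCAM-negative and EpCAM-positive cells 10 (13%) were higher and 1 lower in depleted and 11 (14.3%) higher and 0 lower in control tumours, with higher shares near the 14.2% and 13.3% of all features. Mrps6, a small-subunit protein, had 127, 142 and 159 CPM against 70.4, 88.5 and 95.0 CPM in control tumours (0.71 ± 0.10). Of 18 genes for processing and stability of mitochondrial RNA, 9 were higher and 1 lower in depleted than in control EpCAM-negative cells (all features 21.9% and 23.2%), the direction opposite to that of the mitochondrial mRNAs in the same cells. Among them Trmt10c, a subunit of the enzyme that cuts tRNAs from the precursor, changed by 0.67 ± 0.09. Of 17 genes for mitochondrial DNA replication and transcription, 1 was higher there, the helicase Twnk (0.42 ± 0.11). Tfam, which packages the mitochondrial genome and starts its transcription, was lower than culture in all 4 tumour groups (−0.96 to −0.78) and did not pass between the tumour groups.

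Of 45 assembly factors 15 (33.3%) were lower and 4 higher in depleted than in control EpCAM-negative cells, where 23.2% of all features were lower and 21.9% higher. In EpCAM-positive cells 11 (24.4%) were lower and 1 higher, beside 22.4% and 17.6% of all features, so that the lower share was near the background. Ndufaf3, a complex I assembly factor, led the lower ones with −0.87 ± 0.14. The 18 citric acid cycle enzymes split, with 3 (16.7%) lower and 4 (22.2%) higher in EpCAM-negative and 4 (22.2%) lower and 7 (38.9%) higher in EpCAM-positive cells, against the same backgrounds. Idh2, mitochondrial isocitrate dehydrogenase, had 92.6, 98.9 and 118 CPM in EpCAM-negative against 45.0, 50.5 and 54.4 CPM in EpCAM-positive cells of depleted tumours (1.03 ± 0.11). Idh3a, of the NAD-dependent enzyme, had 143, 157 and 187 against 201, 214 and 220 CPM (−0.39 ± 0.08). Of 14 genes induced by low oxygen that act on mitochondria or glycolysis, 8 were higher and 1 lower in EpCAM-negative than in EpCAM-positive cells of depleted tumours (all features 14.2% and 14.3%), beside 2 higher and 4 lower in control tumours (13.3% and 14.5%). Bnip3, a receptor for removal of mitochondria, had 64.3, 85.4 and 114 against 31.1, 32.5 and 42.8 CPM in depleted tumours (1.32 ± 0.19), and its contrast differed between treatments by 1.80 ± 0.26 (edgeR adjusted p = 1.8e-05). Pdk1, a kinase that restrains entry of pyruvate into the cycle, changed by 0.76 ± 0.11 there. Among regulators of respiratory genes, Epas1 (HIF-2α) was lower in depleted than in control EpCAM-negative cells (−2.55 ± 0.15), as was the coactivator Ppargc1a (−2.23 ± 0.42). Myc was higher there (0.87 ± 0.13). Ppargc1a was also lower and Myc also higher between treatments in EpCAM-positive cells, where no counted mitochondrial member passed.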

How the data were processed

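RNA of sorted tumour cells and of the cultured line was amplified from 0.1 to 1.0 ng with 10, 12 or 14 PCR cycles and read as 50-base reads from an unstranded kit, per the labels' protocols. The sources used here do not say which library had which cycle number. Read counts per gene were deposited by the authors and are whole numbers. STAR, the mm9 build and DESeq2 1.22.2 are named in the submitters' processing notes. The counting tool, the annotation and the treatment of reads with several matches: not given in the sources used here. A deposited table of log-scale values was not used.

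Counts were fitted in edgeR 4.0.16 (limma 3.58.1, R 4.3.3) with TMM factors, a filter on low counts by group that left 16637 features, 1 coefficient per group over all 26 libraries, and the quasi-likelihood test with Benjamini-Hochberg adjustment at 0.05. CPM of single genes use TMM-scaled library totals, and summed marker CPM use library totals without TMM factors. DESeq2 1.42.0, other scalings, no filter, a replicate block and leaving out each library were alternatives; library totals alone were added after seeing the data. The scripts were tested on simulated data. Window and length checks used GENCODE M21 transcripts, and promoters are from RefSeq on GRCm38.p6; no coordinate was converted between builds. Counting precision follows from 17559520 to 38740143 counts per library. The counts covered by PCR without molecular identifiers are not independent molecules.

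Members and gene lists were chosen with earlier results of these data known. Named in each comparison are the mitochondrially encoded members, the Sdh genes and isoform pairs, up to 2 other nuclear members per complex and direction with the largest fold change among those that passed, and up to 3 genes per further list with the smallest p. Other genes complete a list of members that passed or were chosen after their values were seen.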

Additional observations from a re-analysis of the deposited data

Results flagged for a closer look

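Among 88 groups of 6 libraries examined for a library far from the others, 5 held one, where chance alone marks about 1 in 20. EpCAM-negative library 5 of control tumours had 164 CPM of mt-Nd6, against 119.5 to 134 CPM in the other 5. EpCAM-positive library 1 of depleted tumours had 503 CPM of Cox4i1, against 369 to 408 CPM. EpCAM-negative library 2 of control tumours had 194 CPM of Cox6b1, against 153 to 164 CPM. In EpCAM-positive cells of control tumours, library 3 had 2.17 CPM of Cox7a1, against 0.214 to 0.868 CPM, and library 4 had 293 CPM of Sdha, against 238 to 258 CPM.

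The EpCAM contrast differed between depleted and control tumours by the interaction term for 13 members. It was lower in depleted tumours for 4 of 7 mitochondrial and 8 of 77 nuclear members, and higher for 1 nuclear member. Of all tested features 8.69% had a lower and 9.33% a higher contrast, so the nuclear counts do not stand out. The difference, depleted minus control, was −0.75 for mt-Nd5, −0.72 for Ndufa4, −0.67 for mt-Nd6, −0.63 for mt-Nd4, −0.58 for mt-Nd2, −0.55 for Atp5e and −0.49 for Ndufa3. It was −0.44 for Ndufa8, −0.38 for Ndufc2, −0.37 for Atp5c1, −0.34 for Ndufa9, −0.32 for Ndufs3 and 0.44 for Ndufa6.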

How the results depend on the processing

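Single values under each alternative were set beside the main fit for the counted mitochondrially encoded members, the Sdh genes and the tested isoform pairs. Of these values, 113 no longer passed and 72 passed newly, with direction kept. Among calls that had passed, 1 reversed: Sdha in EpCAM-negative cells of control tumours against culture, 0.28 with TMM and −0.029 with library totals alone. The other 2911 were labelled unchanged, which includes any change of direction where the main value had not passed. The cause of the changes below was not tested. Nuclear members lower in EpCAM-negative than in EpCAM-positive cells of depleted tumours numbered 8, and 14 with RLE factors, 13 with library sizes free of mitochondrial features, 16 with DESeq2 and 5 with library totals. In control tumours 8 were higher, and 2 with library totals and 5 without the filter. For the difference of these contrasts library totals gave 1 mitochondrial and 1 nuclear member lower. Between treatments in EpCAM-negative cells they gave 2 and 17. Against culture they gave 2 and 50 for control EpCAM-negative and 2 and 44 for control EpCAM-positive cells, and fitting only the groups compared gave 2 mitochondrial members in EpCAM-negative cells of control tumours. Mean log2 CPM in place of summed shares gave 0.10 (shares −0.06) for nuclear members in the control EpCAM contrast. Between treatments in EpCAM-negative cells it gave −0.23 (0.06) for nuclear and −0.34 (−0.05) for mitochondrial members. Between treatments in EpCAM-positive cells it gave −0.034 (0.09) for nuclear members. The mean log2 CPM uses TMM factors and the shares do not, so the scaling differs as well.

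Leaving out each library gave 5 to 9 higher nuclear members in the control contrast, 5 to 17 lower in the depleted contrast, and 1 to 6 mitochondrial members for their difference. Against culture it gave 20 to 50, 11 to 27, 10 to 21 and 13 to 31 lower nuclear members (depleted before control tumours, EpCAM-negative before EpCAM-positive), and 0 to 1 mitochondrial member in the second of these.

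With replicate number as a block, 12 nuclear members were higher in the control contrast, 15 were lower in the depleted contrast, 13 for the difference of contrasts and 7 between treatments in EpCAM-positive cells, in place of 8, 8, 8 and 11. Same-numbered libraries correlated at 0.050 to 0.172 in control tumours, where 6 of 6 correlated best with their own number, and at 0.017 to 0.047 in depleted tumours, where 3 of 6 did. Some pairs thus correlated at under 0.1, and the labels do not say that a number marks a shared tumour. The fits without a block are kept, and a pairing of the control fractions, of which the correlations are a hint, is not used.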

Other observations

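The gene lists around the respiratory chain differed in how many members were called and in which direction. Between treatments the share of all tested features called was 21.9% higher and 23.2% lower for EpCAM-negative cells, and 17.6% and 22.4% for EpCAM-positive cells. Of 15 subunits and carriers outside the rule, 1 was higher and 1 lower in depleted than in control EpCAM-negative cells (median −0.05). Of 13 regulators of respiratory gene transcription, 6 were higher and 3 (23.1%) lower there, and 4 were higher and 3 lower in EpCAM-positive cells, with lower shares at the level of all features. Of the 14 genes induced by low oxygen, 8 were higher and 1 lower between treatments in EpCAM-negative cells, and 1 was higher and 5 lower in EpCAM-positive cells. Pdk1 had 58.7, 65.2 and 87.4 CPM (lowest, median and highest library) in depleted against 27.4, 32.0 and 37.3 CPM in control EpCAM-negative cells, with no overlap (1.08 ± 0.11 on the log2 scale). Mrps6 had a lower EpCAM contrast in depleted than in control tumours (−0.69 ± 0.14), and Idh2 a higher one (0.84 ± 0.15).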
